A study of Mus musculus with 20 samples.

Results

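The 10 genes described here build, load or switch on major histocompatibility complex (MHC) class I molecules, and they were taken from a fixed list: H2-D1, H2-K1, H2-Q4, H2-T23, H2-M3, B2m, Tap1, Tap2, Tapbp and Nlrc5. They are 10 of 38996 genes that could be named in a bulk RNA-seq table of 20 mouse mammary tumours, and all 10 were among the 19876 genes with enough reads to be tested. Each gene was represented by its transcript with the highest total over the 20 libraries. The tumours came from SSM3, an oestrogen receptor-positive mouse mammary tumour cell line, grown in the inguinal mammary gland of 129S6/SvEv mice, which were 2 to 4 months old, and treated from a volume of about 150 mm3.

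Of 4 groups of 5 tumours, the first received letrozole + anti-PD-1, the second letrozole, the third anti-PD-1 and the last vehicle. Letrozole, an aromatase inhibitor that blocks oestrogen synthesis, was injected subcutaneously at 1 mg/kg daily for 25 days in 5% ethanol in saline, and every mouse that got it had also been ovariectomised. The anti-PD-1 and vehicle mice had sham surgery and the ethanol and saline injections. Ovariectomy and letrozole therefore cannot be told apart, and "letrozole" below stands for both. Anti-PD-1, an antibody that blocks a receptor by which T cells are restrained, was given at 250 µg on days 3, 5 and 7 after surgery, and the labels name no control antibody for the other groups. All tumours come from 1 cell line, and nothing in the labels says that replicate numbers mark shared litters or days.

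A class I molecule is a membrane-bound heavy chain paired with beta-2-microglobulin, the product of B2m, around a short peptide. The peptide is cut from cytosolic proteins by the proteasome, pumped into the endoplasmic reticulum by the Tap1 and Tap2 transporter, and fitted with the help of tapasin, the product of Tapbp, which holds the empty molecule at the transporter. CD8+ T cells read the resulting complex, natural killer cells sense its loss, and Nlrc5 encodes a transactivator that acts at class I promoters.

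The promoters of 8 members were listed by RefSeq on GRCm38.p6, from 250 bases before to 50 after the start. Tap2 and Nlrc5 had no entry. Shown are the 3 heavy chain promoters that share the most motifs, that of their partner chain B2m, and that of Tapbp, the member with the largest letrozole difference. The windows are chr17:35262844-35263143 (plus strand) for H2-D1, chr17:34000298-34000597 (minus strand) for H2-K1, chr17:35379367-35379666 (plus strand) for H2-Q4, chr2:122147437-122147736 (plus strand) for B2m and chr17:33919228-33919527 (plus strand) for Tapbp. Capitals mark matches, on either strand, to GGGNNTTCC (the kB element), TTTCNNTT (an interferon regulatory factor element), TGACG (the core of the cyclic AMP response element) and CCAAT.
H2-D1: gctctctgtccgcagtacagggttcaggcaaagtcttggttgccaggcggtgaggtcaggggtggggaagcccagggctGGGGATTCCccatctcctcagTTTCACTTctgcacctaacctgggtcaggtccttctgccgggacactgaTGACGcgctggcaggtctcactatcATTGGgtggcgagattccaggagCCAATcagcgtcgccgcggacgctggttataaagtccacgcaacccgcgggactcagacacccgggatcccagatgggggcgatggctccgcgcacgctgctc
H2-K1: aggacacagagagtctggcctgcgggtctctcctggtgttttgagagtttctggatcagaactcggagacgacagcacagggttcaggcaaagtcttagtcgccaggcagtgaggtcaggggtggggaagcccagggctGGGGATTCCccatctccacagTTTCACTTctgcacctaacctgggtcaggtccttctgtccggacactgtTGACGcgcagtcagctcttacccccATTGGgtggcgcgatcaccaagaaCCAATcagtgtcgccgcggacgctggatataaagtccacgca
H2-Q4: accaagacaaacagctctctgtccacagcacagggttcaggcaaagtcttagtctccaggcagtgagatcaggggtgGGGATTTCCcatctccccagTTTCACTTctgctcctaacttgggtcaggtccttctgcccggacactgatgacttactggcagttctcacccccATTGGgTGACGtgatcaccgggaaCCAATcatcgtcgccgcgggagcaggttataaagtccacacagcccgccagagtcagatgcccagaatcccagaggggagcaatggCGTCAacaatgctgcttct
B2m: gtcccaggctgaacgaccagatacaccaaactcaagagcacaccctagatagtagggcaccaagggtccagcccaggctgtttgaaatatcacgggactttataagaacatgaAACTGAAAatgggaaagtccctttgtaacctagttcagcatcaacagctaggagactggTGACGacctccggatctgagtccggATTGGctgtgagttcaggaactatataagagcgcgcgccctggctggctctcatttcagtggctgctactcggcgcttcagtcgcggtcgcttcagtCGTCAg
Tapbp: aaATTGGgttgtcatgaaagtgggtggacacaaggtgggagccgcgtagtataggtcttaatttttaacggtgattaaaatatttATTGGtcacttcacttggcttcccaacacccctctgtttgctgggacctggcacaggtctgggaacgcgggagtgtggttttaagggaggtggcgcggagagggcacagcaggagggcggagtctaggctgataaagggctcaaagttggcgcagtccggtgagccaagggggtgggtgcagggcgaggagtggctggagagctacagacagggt

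In H2-D1, H2-K1 and H2-Q4 the kB element, the interferon regulatory factor element, TGACG and the plus-strand CCAAT followed each other in the same order, while the CCAAT on the minus strand (ATTGG) stood after TGACG in H2-D1 and H2-K1 and before it in H2-Q4. The kB element began at -171 from the start in H2-D1 and at -173 in H2-Q4, but TGACG at -101 and -73. The shared order is thus not a shared TGACG site in H2-Q4. The H2-D1 and H2-K1 windows were 88.3% identical over 239 aligned bases, H2-D1 and H2-Q4 83.1% over 284, and H2-K1 and H2-Q4 85.2% over 230. The kB element was in these 3 of the 8 windows, against 5.82% of all 32851 mouse promoter windows. TTTCNNTT was in 6 of 8 (H2-D1, H2-K1, H2-Q4, H2-T23, H2-M3 and B2m; 23.9% of all windows), TGACG in 6 of 8 (20.8%), and CCAAT in all 8 (37.4%). The motif TTCNNNGAA was in H2-M3 alone (8.30% of all windows). The Tapbp window held CCAAT on the minus strand and none of the other motifs searched. The motifs were chosen after the sequences had been seen, a motif may overlap another, and a match is a string of letters in a window and not a bound site.

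Summed over the 1 transcript kept per gene, the 20 libraries held 12497282 to 31387527 reads, and a normalised count is a library's reads divided by its size factor. Luminal epithelial markers Krt8, Krt18, Krt19, Epcam and Cdh1 summed to 214384 to 262111 normalised counts in tumours given letrozole + anti-PD-1, 218907 to 267421 with letrozole, 202037 to 287676 with anti-PD-1 and 198322 to 270252 with vehicle. Among all genes, vehicle replicate 3 stood away from the other vehicle tumours on the first principal component (20.9% of variance; score 75.1, others -104 to -18.0). Anti-PD-1 replicate 1 stood apart on the second (13.3% of variance; score -165), and it had the fewest reads and 12.9% of them in 10 genes. Some of the results below are also given without 1 or both of these tumours, or as a range over fits with a library left out. Nothing in the labels says more than that the tumours are separate samples. The limma p-values therefore set a group difference against the spread between these tumours, taken as shared by the 4 groups.

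The members differed greatly in level. Per kilobase of the chosen transcript, B2m averaged 27048 ± 5823 normalised counts (SD over 20 tumours), H2-D1 25440 ± 5720 and H2-K1 19294 ± 3762. Tapbp followed at 3201 ± 1051, H2-Q4, a non-classical heavy chain, at 2758 ± 563, and H2-T23, which encodes Qa-1, at 2013 ± 484. The transporter chains were at 1902 ± 280 (Tap1) and 841 ± 167 (Tap2), Nlrc5 at 324 ± 52.6, and H2-M3, a heavy chain that presents formylated peptides, at 180 ± 49.2. B2m was above H2-D1 in 11 of 20 tumours, Tapbp above H2-Q4 in 13 and H2-T23 above Tap1 in 12, so the order of these neighbours did not exceed the spread between tumours. Tap1 was above Tap2 in 20 of 20 tumours, and Nlrc5 above H2-M3 in 19. Lengths are those of GENCODE vM21, while no source used here gives the authors' annotation, so the per-kilobase order depends on those transcript lengths. Those chosen for H2-K1, H2-Q4 and H2-T23 are annotated as keeping an intron, and each has a shorter coding transcript with nearly the same count. H2-Q4 averaged 7111 normalised counts over 1793 bases in the coding transcript, against 7161 over 2596 in the chosen one. H2-T23 averaged 3867 over 1472, against 3909 over 1942. On the coding lengths these members would stand higher per kilobase, and the order would differ, with the mean of H2-Q4 above that of Tapbp. H2-D1 also has a coding transcript of 406 bases with 99.85% of the count of the chosen one of 2102. Its place depends on that choice too.

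The heavy chain genes are near-identical in parts, so their levels are uncertain. Of 2547 windows of 50 bases in the H2-Q4 transcript, 561 also occur in transcripts of other genes, as do 19.0% of those of H2-T23, 14.3% of H2-D1 and 8.11% of H2-K1. At 100 bases these shares were 2.24%, 4.50%, 4.64% and 0%. B2m and Nlrc5 shared no 50-base window, and the other 4 members at most 2.00%. Genes on the opposite strand overlap 23.5% of the exon bases of Tapbp, 19.8% of Tap2, 19.1% of H2-Q4 and 7.18% of Tap1 (by Psmb9). No source used here says whether strand was used in counting, so reads of these members and of their partners cannot be told apart.

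Letrozole without antibody went with more heavy chain and tapasin RNA. H2-D1, a classical heavy chain that presents peptides to CD8+ T cells, had 53698, 56041, 74753, 66862 and 61174 normalised counts in letrozole tumours, against 36756, 42857, 44367, 41113 and 43841 in vehicle tumours. All 5 letrozole tumours were above all 5 vehicle tumours, and the difference passed the test (log2 difference 0.57, SE 0.14, limma adjusted p = 0.0461; 1.49-fold). For Tapbp the values were 9304, 8095, 13781, 14276 and 12859 in letrozole tumours, against 5545, 4744, 9056, 7104 and 5943 in vehicle tumours. The groups overlapped at 1 place, where vehicle replicate 3 stood above letrozole replicate 2, and the difference was the largest of the 10 members (log2 difference 0.85, SE 0.18, limma adjusted p = 0.0252; 1.8-fold). H2-D1 and Tapbp were the 2 of 10 members called higher, where called means a Benjamini-Hochberg adjusted p under 0.05 over all genes tested. Of all genes, 0.951% were called in either direction and 0.402% higher in this comparison (80 higher and 109 lower, or 42 and 99 after median centring of the libraries).

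H2-K1, the other classical heavy chain, had 34702, 37082, 50254, 44491 and 39859.5 normalised counts in letrozole tumours, against 25699.7, 29159, 33324, 28858 and 30097 in vehicle tumours. H2-T23, whose product Qa-1 is a ligand of the CD94/NKG2A receptor of natural killer cells, had 3785, 3900.2, 4834, 4797 and 4720.3 in letrozole tumours, against 2677, 2262, 3579.7, 3050.0 and 3016 in vehicle tumours. In both genes every letrozole tumour was above every vehicle tumour, yet neither was called (H2-K1 log2 difference 0.48, limma adjusted p = 0.111; H2-T23 0.60, 0.0587). With H2-D1 these were 3 of 10 members whose groups did not overlap with letrozole higher, against 1.71% of all genes. H2-Q4 had 7143, 6456, 8909, 7425 and 8701 in letrozole tumours, against 4441, 5567, 6237, 5226 and 7048 in vehicle tumours, with overlap, and was not called (log2 difference 0.44, SE 0.12, limma adjusted p = 0.0981).

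The remaining 5 members were not called without antibody. The log2 difference of letrozole over vehicle was 0.55 for H2-M3 (95% interval 0.02 to 1.08), 0.36 for Tap2 (0.09 to 0.63), 0.18 for Tap1 (-0.03 to 0.39), 0.16 for B2m (-0.21 to 0.54) and -0.11 for Nlrc5 (-0.41 to 0.19). Nlrc5 was the 1 member on the other side of 0. Over the 10 members the median was 0.46, against 0.03 over all genes, and 9 of 10 were above 0, as were 53.3% of all genes. The 2 calls depended on single libraries. Leaving out any of letrozole replicates 3, 4 and 5 or of vehicle replicates 1, 2 and 5 left 0 called members, and leaving out vehicle replicate 3 gave 5. Tapbp was the 1 called member without vehicle replicate 4, letrozole replicate 1 or 2, anti-PD-1 replicate 2 or 3, or combined replicate 2, 4 or 5. The log2 difference of Tapbp stayed between 0.75 and 0.98 in those fits, and that of H2-D1 between 0.51 and 0.63.

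**Figure D1:**
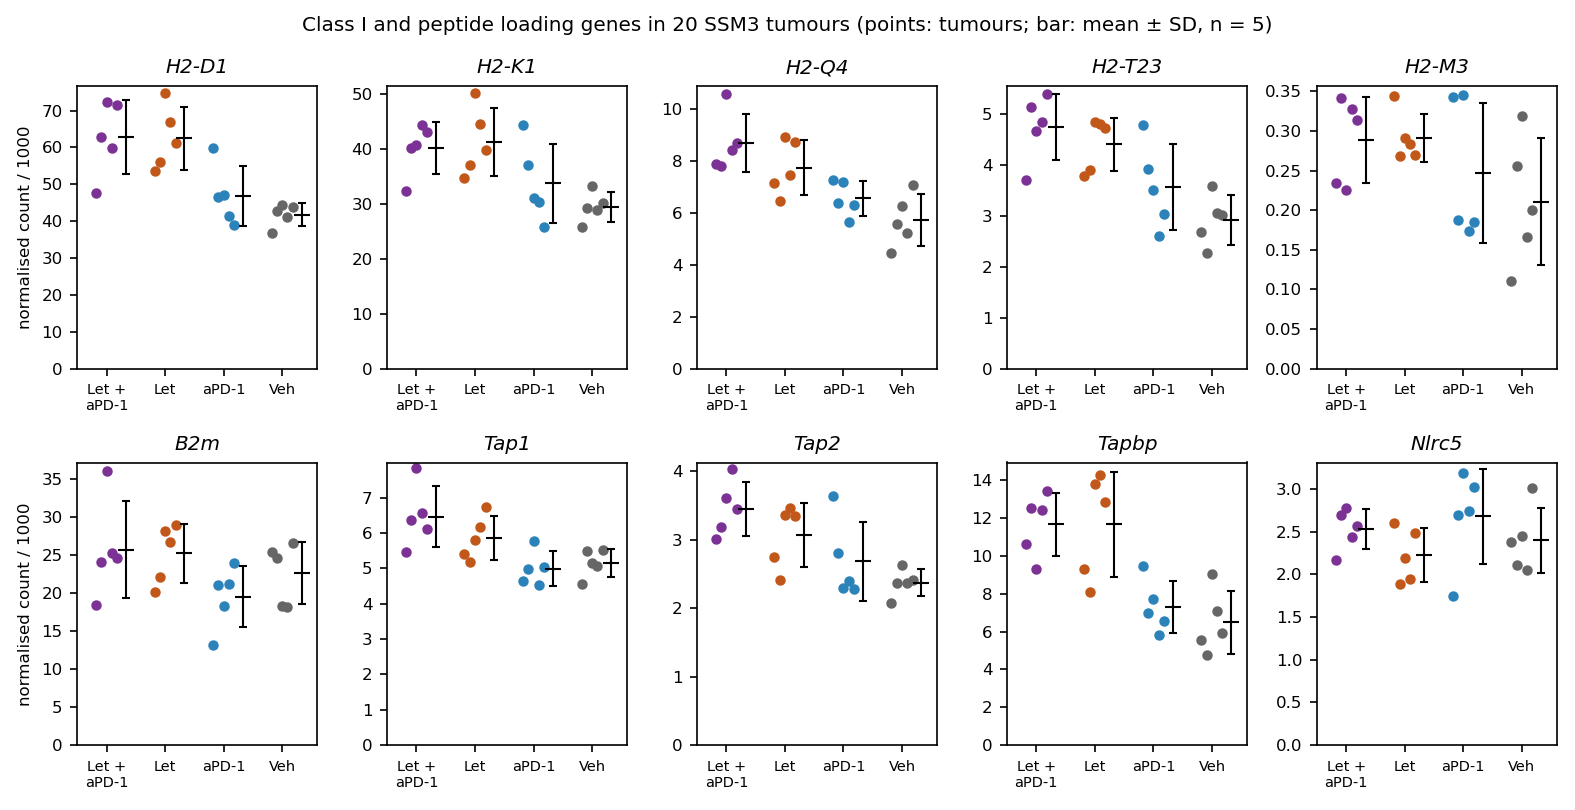
Normalised count divided by 1000 of each gene in every tumour, with the mean ± SD of 5 tumours beside it, for letrozole + anti-PD-1 (Let + aPD-1), letrozole (Let), anti-PD-1 (aPD-1) and vehicle (Veh). Both letrozole groups sit higher for H2-D1, H2-T23 and Tapbp, the 4 Nlrc5 groups overlap, and 1 anti-PD-1 tumour (replicate 1) is the highest of its group for H2-D1 and the lowest for B2m.

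In the presence of anti-PD-1 the letrozole differences were above 0 for 9 of 10 members, as for 53.9% of all genes, but none was called. H2-D1 had 47719, 62768, 72354, 59788 and 71547 normalised counts in tumours given letrozole + anti-PD-1, against 59899, 46564, 46956, 41396 and 39051 in anti-PD-1 tumours. Apart from anti-PD-1 replicate 1, every anti-PD-1 tumour was below every combined-treatment tumour (log2 difference 0.43, SE 0.14, limma adjusted p = 0.151). Tapbp had 10625, 12530.4, 9326, 12398 and 13416 in combined-treatment tumours, against 9442, 6983, 7729.8, 5809 and 6538 in anti-PD-1 tumours (log2 difference 0.68, SE 0.18, limma adjusted p = 0.0751). Here too a lone anti-PD-1 tumour, replicate 1, reached into the combined group.

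H2-Q4 had 7871, 7793, 10560.1, 8419 and 8673 normalised counts in combined-treatment tumours, against 7256, 6382, 7186, 5636 and 6285 in anti-PD-1 tumours (log2 difference 0.40, SE 0.12, limma adjusted p = 0.135). It was the 1 of 10 members whose groups did not overlap, against 1.37% of all genes with letrozole higher. Tap1, a chain of the peptide transporter, had 5470.3, 6356, 7831, 6562 and 6119 in combined-treatment tumours, against 4634, 4974, 5789, 4532 and 5033 in anti-PD-1 tumours, where only anti-PD-1 replicate 3 exceeded any combined-treatment tumour (log2 difference 0.37, SE 0.10, limma adjusted p = 0.0813). Tap2, its partner chain, had 3013, 3183, 3602, 4030.0 and 3448 in combined-treatment tumours, against 3634, 2798, 2297, 2403 and 2275 in anti-PD-1 tumours (log2 difference 0.38, SE 0.13, limma adjusted p = 0.175). Anti-PD-1 replicate 1 again lay among the combined-treatment values, and the other 4 lay below them.

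For H2-T23 the values were 3700.2, 5146, 4661, 4839 and 5384 in combined-treatment tumours, against 4778, 3910.2, 3507, 2598 and 3038 in anti-PD-1 tumours (log2 difference 0.43, 95% interval 0.12 to 0.74). For H2-K1 they were 32393, 40167, 40716, 44406 and 43172 in combined-treatment tumours, against 44385, 37145, 31010.5, 30358 and 25868 in anti-PD-1 tumours (0.27, -0.02 to 0.56). Both pairs overlapped. B2m differed by 0.39 (0.02 to 0.76), H2-M3 by 0.27 (-0.25 to 0.80) and Nlrc5 by -0.06 (-0.36 to 0.24). With a library left out, the B2m difference ran from 0.26 to 0.50. In limma 0 of 10 members were called, against 1.07% of all genes in either direction and 0.478% higher, and 7 of 10 were higher at an unadjusted p under 0.05, against 6.78% of all genes. On recovered reads edgeR also called 0, while DESeq2 called 3 (H2-D1, Tap1 and Tapbp). Without anti-PD-1 replicate 1, limma called Tap2 and Tapbp, without anti-PD-1 replicate 3 Tap1, and without vehicle replicate 3 Tapbp. The median over the members was 0.39, against 0.03 over all genes.

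**Figure D2:**
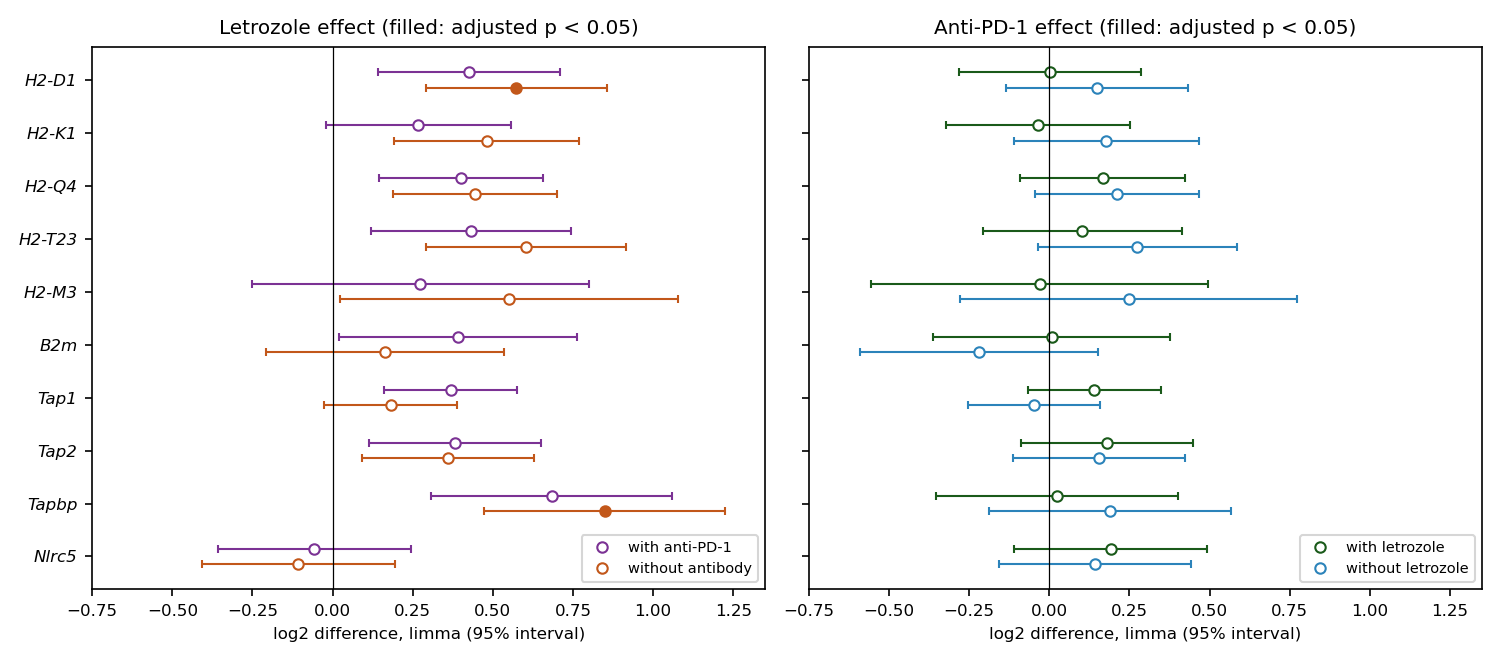
Log2 differences with 95% intervals from limma for each gene; filled points have an adjusted p under 0.05. On the left, letrozole with anti-PD-1 (purple) and without antibody (orange), with H2-D1 and Tapbp filled; on the right, anti-PD-1 with letrozole (green) and without it (blue), where every interval spans 0.

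Averaged over both antibody arms, letrozole went with higher RNA of 7 of 10 members, which spanned classical and non-classical heavy chains, the transporter and tapasin. The heavy chains H2-D1 (log2 difference 0.50, SE 0.10, limma adjusted p = 0.00357), H2-T23 (log2 difference 0.52, SE 0.11, limma adjusted p = 0.00542), H2-Q4 (log2 difference 0.42, SE 0.09, limma adjusted p = 0.00585) and H2-K1 (log2 difference 0.37, SE 0.10, limma adjusted p = 0.0245) rose. In the loading machinery Tapbp (log2 difference 0.77, SE 0.13, limma adjusted p = 0.00114), Tap2 (log2 difference 0.37, SE 0.09, limma adjusted p = 0.0170) and Tap1 (log2 difference 0.27, SE 0.07, limma adjusted p = 0.0214) rose. As folds, these ran from 1.21 for Tap1 to 1.7 for Tapbp. Among all genes 7% were called in this comparison and 3.28% were called higher. The median over the members was 0.39, against 0.03 over all genes. The averaged comparison takes in the same libraries as the 2 comparisons above and is therefore no further evidence for them.

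H2-M3, B2m and Nlrc5 were not called. H2-M3 had 225 to 342 normalised counts in combined-treatment tumours and 269 to 344 in letrozole tumours, against 174 to 345 in anti-PD-1 tumours and 111 to 319 in vehicle tumours. It was the lowest member (log2 difference 0.41, SE 0.18, limma adjusted p = 0.173). B2m averaged 25694 ± 6397 in combined-treatment tumours and 25223 ± 3841 in letrozole tumours, against 19531 ± 4062 in anti-PD-1 tumours and 22598 ± 4096 in vehicle tumours (SD, n = 5 each). Its groups overlapped throughout (log2 difference 0.28, 95% interval 0.02 to 0.54, limma adjusted p = 0.194).

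Nlrc5 had 2171, 2694, 2782, 2439 and 2568 normalised counts in combined-treatment tumours and 2606, 1892, 2191, 1950.3 and 2490.0 in letrozole tumours. The values were 1747, 2693, 3184, 2741 and 3024 in anti-PD-1 tumours and 2377, 2112, 2453, 2047 and 3012 in vehicle tumours. All 4 groups overlapped, and the averaged difference was -0.08 on the log2 scale (95% interval -0.29 to 0.13, limma adjusted p = 0.676). That interval does not show that Nlrc5 RNA was equal between the groups, and a difference in its protein or activity would not be seen here.

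The averaged calls of H2-D1, H2-T23, H2-Q4 and Tapbp held in all 35 alternative fits. That of Tap2 was lost in 1 and that of Tap1 in 2. H2-K1 was lost in 6, among them the fits without vehicle replicate 1, anti-PD-1 replicate 4, letrozole replicate 3 or combined replicate 5 (limma adjusted p up to 0.0511 in these 4). Without both vehicle replicate 3 and anti-PD-1 replicate 1, 8 members were called, H2-M3 being the eighth.

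Leukocytes carry much class I, and their markers were also higher with letrozole, though none was called. Ptprc, Coro1a, Laptm5, Cd52 and Cd53, all 5 above 0 in the averaged comparison, summed to 1052 to 3414 normalised counts in combined-treatment tumours and 1015 to 3172 in letrozole tumours, against 391 to 1789.7 in anti-PD-1 tumours and 395 to 3782 in vehicle tumours. Their median log2 difference was 0.99, and that of Ptprc, which encodes CD45, was 0.99 (limma adjusted p = 0.140). All 8 macrophage markers were above 0 as well (median 0.80), with sums of 3590.1 to 9068 in combined-treatment tumours and 3948 to 9272 in letrozole tumours, against 1591 to 7570.1 in anti-PD-1 tumours and 1106 to 13558 in vehicle tumours. T cell markers summed to 88.9 to 355 in combined-treatment tumours and 96.8 to 309.9 in letrozole tumours, against 119.6 to 318 in anti-PD-1 tumours and 78.8 to 217 in vehicle tumours. In the averaged comparison 12.3% of all genes were higher at an unadjusted limma p under 0.05. So were 4 of 5 leukocyte markers, 5 of 8 macrophage markers and 1 of 6 tested T cell markers, with 0 lower.

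Skeletal muscle markers summed to 22.6 to 1002 normalised counts in combined-treatment tumours and 17.1 to 668 in letrozole tumours, against 12.4 to 106 in anti-PD-1 tumours and 11.0 to 47.6 in vehicle tumours. Myoepithelial markers summed to 570.3 to 1589.7 in combined-treatment tumours and 363 to 14629 in letrozole tumours, against 298 to 1342 in anti-PD-1 tumours and 206 to 1936 in vehicle tumours. Over 12 marker lists 53 of 61 genes could be tested, and 49 of these were above 0 (54.1% of all genes were). Of the 53, 1 was called higher and 0 lower, against 3.28% and 3.72% of all genes. It was Epcam, an adhesion molecule of the epithelium (log2 difference 0.52, SE 0.09, limma adjusted p = 0.00142). The 5 luminal epithelial markers ran from -0.13 to 0.52, with a median of 0.12. The medians of the 11 lists with tested genes ran from 0.12 to 2.10. No marker gene was at 0 in all 20 libraries.

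In bulk tumours more cells of a type and more RNA per cell cannot be told apart. Vehicle replicate 3 had the highest leukocyte sum of all 20 tumours, 3782 normalised counts. With the mean log2 level of the 5 leukocyte markers as a covariate, a fit chosen after seeing the data, the averaged log2 differences were 0.49 for H2-D1, 0.48 for H2-T23, 0.39 for H2-Q4 and 0.66 for Tapbp. These 4 members were still called, while H2-K1 (0.38, limma adjusted p = 0.0952), Tap2 (0.37, 0.0779) and Tap1 (0.25, 0.140) were not. In the same fit the comparison without antibody had 0 called members, while its log2 difference was 0.57 for H2-D1 (limma adjusted p = 0.153) and 0.72 for Tapbp (limma adjusted p = 0.136), and the median over the members was 0.38, against 0.46 without the covariate. The markers used as the covariate were themselves higher with letrozole, so this fit cannot separate leukocyte content from letrozole. The part of leukocytes and of the other cell types in the result was not tested.

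**Figure D3:**
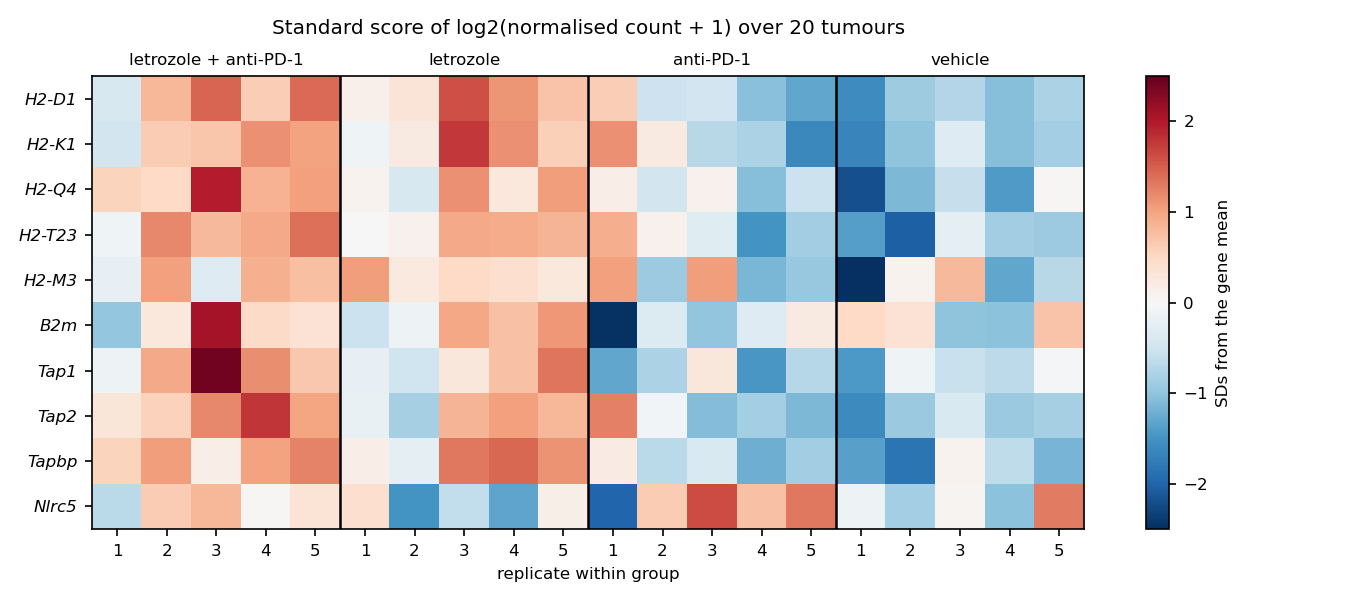
Standard score of log2(normalised count + 1) of each gene over the 20 tumours, red above and blue below the gene's mean, by group and replicate. Most members are red in most tumours of both letrozole groups and blue in the vehicle group. Letrozole replicate 2 and combined replicate 1 have mean scores below 0 over the members (-0.27 and -0.15). The Nlrc5 row does not follow the groups, and anti-PD-1 replicate 1 is low for B2m and Nlrc5.

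Anti-PD-1 itself went with no called change in these genes. Without letrozole, H2-D1 had the values given above for anti-PD-1 and vehicle tumours, and the groups overlapped (log2 difference 0.15, 95% interval -0.13 to 0.43). Over the 10 members the log2 differences of anti-PD-1 over vehicle ran from -0.22 for B2m (-0.59 to 0.15) to 0.27 for H2-T23 (-0.04 to 0.59). With a library left out, these 2 ran from -0.30 to -0.08 for B2m and from 0.16 to 0.38 for H2-T23. In limma 0 members were called and 0% of all genes, and 0 members passed an unadjusted p of 0.05, against 2.72% of all genes. edgeR and DESeq2 called 0 members too. Anti-PD-1 replicate 1 was the highest anti-PD-1 tumour for H2-D1, H2-K1, H2-Q4, H2-T23, Tap2 and Tapbp and the lowest for B2m and Nlrc5.

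With letrozole, the differences of the combined treatment over letrozole alone ran from -0.04 for H2-K1 (-0.32 to 0.25) to 0.19 for Nlrc5 (-0.11 to 0.49). Here 0 members and 0% of all genes were called, by limma, and 0 members passed an unadjusted p of 0.05, against 3.15% of all genes. The test of whether the letrozole difference changed with the antibody also called 0 members and 0% of all genes, with 0 members at an unadjusted p under 0.05, against 1.98%. Its estimates ran from -0.28 for H2-M3 (-1.02 to 0.47) to 0.23 for B2m (-0.30 to 0.75). With a library left out, these 2 ran from -0.45 to -0.07 for H2-M3 and from 0.09 to 0.34 for B2m. For every member the 95% interval reached at least 0.40 from 0 on 1 side, so the letrozole difference is not shown to be equal in both arms.

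Set against vehicle, the combined treatment had 5 of 10 members called higher, against 1.18% of all genes called and 0.458% called higher. They were Tapbp (log2 difference 0.87, SE 0.18, limma adjusted p = 0.0176), H2-T23 (log2 difference 0.71, SE 0.15, limma adjusted p = 0.0195), H2-Q4 (log2 difference 0.61, SE 0.12, limma adjusted p = 0.0143), H2-D1 (log2 difference 0.58, SE 0.14, limma adjusted p = 0.0395) and Tap2 (log2 difference 0.54, SE 0.13, limma adjusted p = 0.0415). The same 5 were the members whose combined-treatment tumours all lay above all vehicle tumours, against 1.32% of all genes. Tap2 had 3013, 3183, 3602, 4030.0 and 3448 normalised counts in combined-treatment tumours, against 2079, 2370.2, 2636, 2369.6 and 2413 in vehicle tumours. H2-K1 differed by 0.45 and Tap1 by 0.32, and neither was called (limma adjusted p = 0.129 and 0.127). The count fell to 0 without vehicle replicate 1, to 1 (H2-Q4) without vehicle replicate 2 or combined replicate 5, and to 3 without vehicle replicate 4 or 5, anti-PD-1 replicate 2, letrozole replicate 5 or combined replicate 2, 3 or 4. This comparison shares its vehicle tumours with letrozole over vehicle and its combined tumours with the other letrozole comparison.

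The members moved together to different degrees. With the mean standard score of the 10 members over 20 tumours, to which each contributes, Pearson's r was 0.94 for H2-Q4, 0.93 for H2-D1, 0.90 for H2-T23, 0.87 for Tap2 and Tapbp, 0.86 for H2-K1 and 0.84 for Tap1. It was 0.66 for H2-M3, 0.44 for B2m and 0.05 for Nlrc5. Among the other tested genes the nearest in pattern were Gm11131 (r = 0.91), which overlaps H2-Q4 on the opposite strand, Nck2, Igtp and Irgm2 (0.88 each) and Clip4 (0.87). These are descriptions over tumours that share the group differences.

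Nlrc5, the class I transactivator, was set against each of the other 9 members after the group means had been taken out, over 20 tumours. With each library centred on its median, 2 of the 9 pairs had an adjusted p under 0.05, but in the main analysis none did. B2m came nearest (Pearson's r = 0.563, permutation p = 0.00984, adjusted over 9 pairs 0.0886; Spearman's rho = 0.474, permutation p = 0.0358, adjusted 0.161). Tap1 followed (r = 0.453, permutation p = 0.0449, adjusted 0.202; rho = 0.484, permutation p = 0.0323, adjusted 0.161). For the other 7 members r ran from -0.381 (H2-K1) to 0.255 (H2-Q4), with rho from -0.227 (H2-K1) to 0.308 (H2-Q4), the lowest permutation p being 0.0963 (adjusted 0.217) for r and 0.187 (adjusted 0.561) for rho. Without the 2 tumours farthest from the median of Nlrc5, anti-PD-1 replicate 1 and vehicle replicate 5, r was 0.337 for B2m and 0.422 for Tap1.

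**Figure D4:**
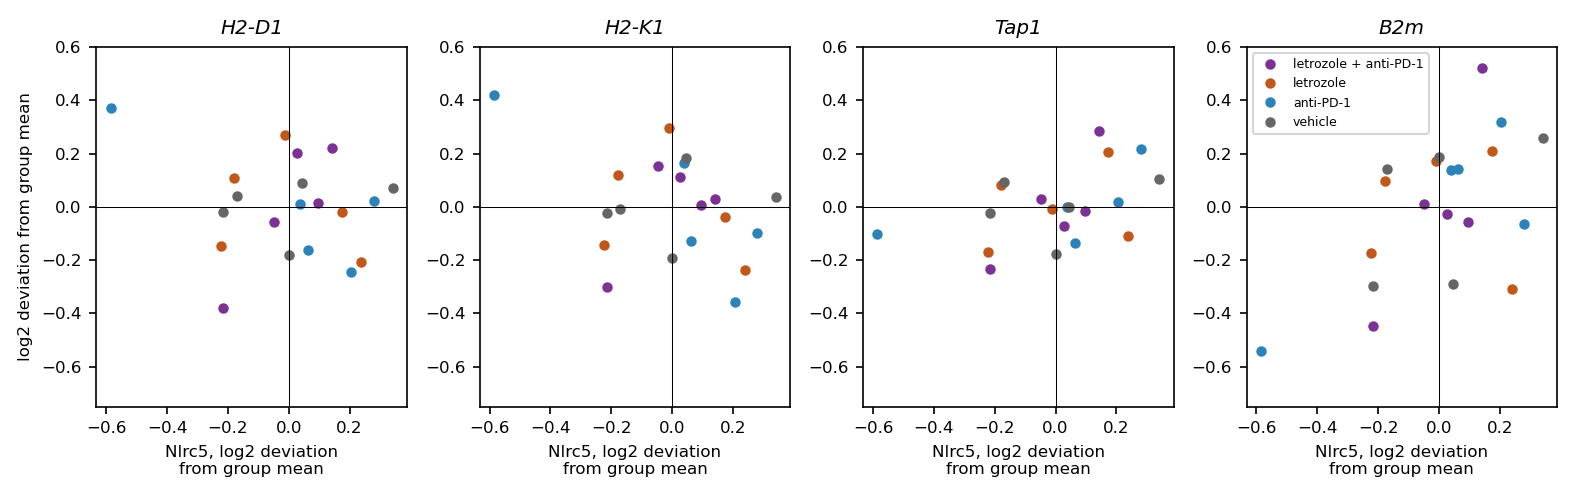
Deviation of H2-D1, H2-K1, Tap1 and B2m from their group means (vertical) against that of Nlrc5 (horizontal), both on the log2 scale, 1 point per tumour, coloured by group. Anti-PD-1 replicate 1 lies at the far left of each panel, high for H2-D1 and H2-K1 and low for B2m, and r was -0.214, -0.381, 0.453 and 0.563 in the 4 panels.

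The other genes of the pathway were read in the averaged letrozole comparison, in which 3.28% of all genes were called higher and 3.72% lower. Of 17 tested class I and class I-like genes outside the members, 1 was called higher and 0 lower, near those shares (median 0.26). This was H2-T22, a non-classical heavy chain seen by some gamma delta T cells, with 5374 ± 209.7 normalised counts in combined-treatment tumours and 4721 ± 429.5 in letrozole tumours, against 4277 ± 586 in anti-PD-1 tumours and 4169 ± 415 in vehicle tumours (SD, n = 5 each; log2 difference 0.26, SE 0.07, limma adjusted p = 0.0220). Of 16 other loading and processing genes 0 were called higher and 1 lower, also near them (median 0.04). The 1 was Thop1, a cytosolic peptidase that trims and destroys peptides, with 1861 ± 288 in combined-treatment tumours and 1828 ± 282 in letrozole tumours, against 2564 ± 505 in anti-PD-1 tumours and 2409 ± 607 in vehicle tumours (log2 difference -0.41, SE 0.12, limma adjusted p = 0.0435).

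The 3 immunoproteasome subunits, which replace those of the standard proteasome and change the peptides cut, were not called. Psmb8 averaged 5572 ± 469 normalised counts in combined-treatment tumours and 5434 ± 495 in letrozole tumours, against 5221 ± 899 in anti-PD-1 tumours and 4667 ± 307 in vehicle tumours (log2 difference 0.16, limma adjusted p = 0.185). Psmb9 differed by 0.15 (-0.04 to 0.33) and Psmb10 by -0.00 (-0.27 to 0.26).

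Irf9, the DNA-binding subunit of the complex formed after type I interferon signalling, averaged 1437 ± 147 normalised counts in combined-treatment tumours and 1472 ± 132 in letrozole tumours, against 1217 ± 115 in anti-PD-1 tumours and 1168 ± 145 in vehicle tumours (log2 difference 0.29, SE 0.07, limma adjusted p = 0.0194). Irf1, which binds interferon response elements, was not called (log2 difference 0.23, limma adjusted p = 0.0646). Of 7 tested interferon receptor chains and kinases, 2 were called higher and 0 lower, against 3.28% and 3.72% of all genes. Ifngr2 (log2 difference 0.36, SE 0.10, limma adjusted p = 0.0300) and Ifnar2 (log2 difference 0.28, SE 0.08, limma adjusted p = 0.0497) were the receptor chains in question, for interferon gamma and for type I interferon.

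Of 11 genes that lower class I, 2 were called higher in the averaged comparison and 0 lower, against 3.28% and 3.72% of all genes. Tmem127, which with Susd6 and Wwp2 forms a complex that sends class I molecules to degradation, averaged 2455 ± 161 normalised counts in combined-treatment tumours and 2199 ± 192 in letrozole tumours, against 1754 ± 223 in anti-PD-1 tumours and 1754 ± 150.1 in vehicle tumours (log2 difference 0.41, SE 0.07, limma adjusted p = 0.000853). It was also called in the presence of anti-PD-1, where 0.478% of all genes were called higher (log2 difference 0.49, SE 0.09, limma adjusted p = 0.0123). Susd6 was called in the averaged comparison (log2 difference 0.27, SE 0.07, limma adjusted p = 0.0218), and Wwp2 was not (log2 difference 0.05, limma adjusted p = 0.797). Of 6 tested receptors of class I and cytotoxic effectors 0 were called. Cd8a, the co-receptor of class I-restricted T cells, averaged 20.6 ± 25.9 normalised counts in combined-treatment tumours and 23.4 ± 25.3 in letrozole tumours, against 4.51 ± 5.99 in anti-PD-1 tumours and 10.2 ± 12.9 in vehicle tumours (log2 difference 1.67, 95% interval -0.04 to 3.38).

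**Figure D5:**
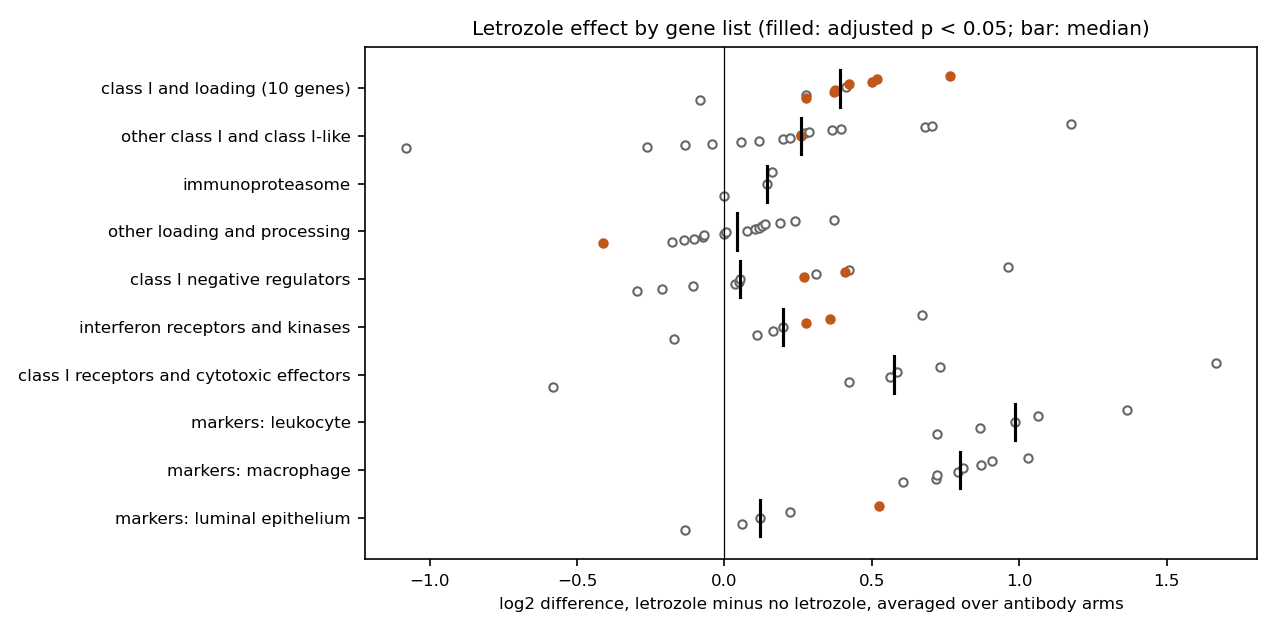
Log2 difference of letrozole over no letrozole, averaged over antibody arms, for each tested gene of 10 lists; bars are list medians and filled points have an adjusted p under 0.05. The class I and loading genes have 7 of 10 filled and a median of 0.39, the immunoproteasome genes none filled and 0.15, and leukocyte markers none filled and a median of 0.99.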

How the data were processed

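Bulk RNA-seq was done on 20 tumours, 5 per group. Extraction used a Qiagen AllPrep kit and libraries a Swift Rapid kit, per the labels' protocols. STAR 2.7.10a, DESeq2 and the build GRCm39 are named in the submitters' processing notes. No source used here gives the DESeq2 version, read counter, annotation, use of strand or filters. Deposited was a signal (each library's read counts over its size factor) for 127442 transcripts. Whole reads could be recovered from 100% of values (tolerance 0.001), with size factors of 0.472 to 1.46. Summed over the 1 transcript kept per gene, libraries held 12497282 to 31387527 reads. GENCODE vM21 on GRCm38 named 118889 transcripts (93.3%), and the 8553 others, holding 1.79% to 2.76% of the reads summed over all transcripts, were left out. Coordinates of the files are not used, since the builds differ. The design assumed 1 row per gene, and the table holds transcripts, of which the one with the highest total was kept.

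limma 3.58.1 with a trend was fitted to log2(value + 1) of genes with at least 10 in 5 libraries, as 4 group means (16 residual degrees of freedom), two-sided, with Benjamini-Hochberg adjustment over 19876 genes. Log2 differences are on the log2(value + 1) scale and p-values are from limma unless another tool is named. Correlations used 100000 permutations. Alternatives were recovered reads with DESeq2 1.42.0 or edgeR 4.0.16 and other scalings, filters, pseudocounts, transcripts and left-out libraries. Code was tested on simulated data. Named were all 10 members, list genes with an adjusted p under 0.05 in a letrozole comparison, Psmb8, Psmb9, Psmb10, Irf1, Cd8a and Ptprc, and the 5 genes nearest in pattern. A further gene and the list that holds it are not reported here. Wwp2, Epcam and marker sums were added after their values were seen. Members and lists were chosen with earlier results of these data known. Promoter windows are RefSeq's (GRCm38.p6).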

Additional observations from a re-analysis of the deposited data

How the results depend on the processing

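The averaged letrozole comparison had 7 called members in the main analysis and 6 to 7 when each library was left out in turn, 5 with median centring, 8 with array weights or without both vehicle replicate 3 and anti-PD-1 replicate 1, and 4 with the leukocyte marker mean as a covariate. Letrozole over vehicle had 2 called members and 0 to 5 with a library left out. It had 1 with a pseudocount of 5, with no filter or with each library centred on its median, 4 with quantile normalisation or array weights, 5 by DESeq2, 6 without both vehicle replicate 3 and anti-PD-1 replicate 1, and 0 with the leukocyte covariate. The number of all genes called moved between fits too. For letrozole over vehicle it was 189 of 19876 in the main analysis and 195 with a pseudocount of 5. With quantile normalisation it was 235, and with no filter 126 of 38996. A change in a member count between fits is therefore not a result about the members alone. Letrozole with anti-PD-1 had 0 and 0 to 2 with a library left out, 3 with quantile normalisation or DESeq2, 4 with array weights and 2 without both of those libraries. The combined treatment over vehicle had 5 and 0 to 5 with a library left out, 3 with no filter, median centring or only the groups compared in the fit, 6 with quantile normalisation, array weights, DESeq2 or without both of those libraries (H2-K1 being the sixth), and 1 with the leukocyte covariate. The data gave no sign that replicate numbers pair the tumours (correlations of deviations -0.344 to 0.197 over 30 pairs, with a tumour nearest its own number in 3). This does not show that the numbers mark no shared litter or day. With the replicate block the combined treatment over vehicle had 3 called members and the averaged comparison 7. Letrozole over vehicle kept a count of 2 under the block, with H2-D1 no longer called (limma adjusted p = 0.0585) and H2-Q4 called (0.0448). The other comparisons had 0 called members in every alternative. Where no cause is named it was not tested.

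Of 2500 values of 70 member results under 36 settings, 2335 kept direction and side of the threshold, 42 gained a call, 80 lost one and 43 changed sign, all of them differences near 0. Part of the 2335 was fixed in advance. Leaving out a library leaves the estimate of a comparison without it unchanged, and the transcript with the highest median was the chosen one for every member. Comparisons with 0 called members in every fit are also among them, so 2335 is no measure of stability. Under quantile normalisation the combined treatment over letrozole was -0.092 for H2-D1, 0.045 for H2-K1 and -0.00736 for B2m, with array weights 0.035 for H2-M3 and -0.021 for B2m, by edgeR -0.00276 for Tapbp, and with the leukocyte covariate 0.00274 for H2-M3. The interaction of H2-Q4 was 0.014 with median centring and 0.00707 with array weights, and that of Nlrc5 -0.11 without vehicle replicate 3 and anti-PD-1 replicate 1. With a library left out, the combined treatment over letrozole ran from -0.12 to 0.12 for B2m, -0.053 to 0.097 for H2-D1, -0.094 to 0.040 for H2-K1, -0.096 to 0.054 for H2-M3 and -0.099 to 0.11 for Tapbp. The interaction ran from -0.12 to 0.042 for H2-Q4, -0.097 to 0.12 for Nlrc5 and -0.061 to 0.14 for Tap2, and Nlrc5 with anti-PD-1 from -0.20 to 0.013. With each library centred on its median, 2 of the 9 correlations with Nlrc5 passed, against 0. Without the 2 farthest tumours r was 0.071 for H2-D1, 0.12 for H2-T23, 0.17 for H2-M3 and 0.056 for Tapbp, and without vehicle replicate 3 and anti-PD-1 replicate 1 it was 0.21, 0.25, 0.23 and 0.054, and 0.060 for Tap2.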
